A study of Rattus norvegicus with 6 samples.

Results

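In all, 9 genes of hepatic sterol disposal were followed in the livers of rats fed a control diet (CD) or a Western diet (WD). They were chosen by name as the genes of sterol efflux, uptake from high-density lipoprotein (HDL) and esterification, with both liver X receptors (LXR), namely Abcg5, Abcg8, Abca1, Abcg1, Scarb1, Soat2, Nr1h3, Nr1h2 and Lcat. All 9 were found, each on 1 locus, among 32158 loci with a gene symbol. Of the 9, 8 had a mean of at least 1 FPKM (fragments scaled for transcript length and library size) over the 6 libraries and were compared with all 10201 loci that passed this filter. Abcg8, at a mean of 0.569 FPKM, did not pass it. Obesity-prone Sprague Dawley rats of 160 to 190 g were fed the CD (TD 08485) or the WD (TD 88137), a diet high in fat and sucrose, for 2 weeks, and all were fasted overnight and refed before the liver was taken. Each diet was represented by total RNA, by the light fraction of a sucrose gradient (mRNAs with 3 or fewer ribosomes) and by the heavy fraction (4 or more ribosomes). RNA of 3 rats was pooled for each of these 6 groups, so every group was 1 library and no difference between diets has a replicate check or a p-value. The study asked whether the WD alters mRNA abundance, which is read from total RNA, and ribosome density, which is read from the heavy to light ratio.

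LXRα (Nr1h3) and LXRβ (Nr1h2) are nuclear receptors that bind oxysterols, pair with the retinoid X receptor and switch on genes that move cholesterol out of cells. In the liver, the ABCG5 and ABCG8 half-transporters form a single pump that sends sterols into bile, while ABCA1 and ABCG1 pass cholesterol to lipid-poor and to mature HDL particles, respectively. SR-BI (Scarb1) takes cholesteryl esters back from HDL, ACAT2 (Soat2) esterifies cholesterol inside hepatocytes, and LCAT is secreted by them and esterifies cholesterol on HDL in plasma.

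A pair of promoter stretches is shown, because the first serves both subunits of the biliary sterol pump and the second holds the only LXR-type repeat found among these genes. RefSeq promoter windows of the rat assembly GRCr8, reaching from 250 bases before to 50 bases after the start site, were at hand for 6 of the 9 genes (Abcg5, Abcg8, Abca1, Nr1h3, Nr1h2 and Lcat). Abcg5 and Abcg8 point away from each other on chromosome 6, their start sites lie 206 bases apart, and their windows share 295 of 300 bases. The first stretch is all that lies between these start sites (chr6:15717731-15717935, in the direction of Abcg5), with GATAA and CCAAT boxes in capitals, the latter as ATTGG on the printed strand. GATAA was present in 26.5% and CCAAT in 37.5% of all 33469 windows searched on both strands. The second stretch is the 250 bases before the start of Abca1 (chr5:72596474-72596723, minus strand). Its capitals mark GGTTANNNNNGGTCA, read on the opposite strand, a direct repeat with a spacer of 4 bases (DR4) in which the base after the spacer, the first of the next half-site, was left free. This is the arrangement that LXR with the retinoid X receptor is known to bind.
Abcg5 and Abcg8: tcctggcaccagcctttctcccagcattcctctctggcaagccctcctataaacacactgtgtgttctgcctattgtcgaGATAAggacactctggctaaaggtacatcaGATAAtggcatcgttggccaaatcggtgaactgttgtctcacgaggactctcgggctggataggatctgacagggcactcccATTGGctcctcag
Abca1: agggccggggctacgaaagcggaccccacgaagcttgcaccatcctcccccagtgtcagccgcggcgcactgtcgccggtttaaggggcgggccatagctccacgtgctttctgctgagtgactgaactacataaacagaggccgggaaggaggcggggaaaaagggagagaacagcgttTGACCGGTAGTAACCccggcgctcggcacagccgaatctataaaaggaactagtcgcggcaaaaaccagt

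The spelling found in Abca1 occurred in 18 of 33469 windows (0.0538%), and any of the 4 spellings searched, with GGTCA or GGTTA in either place, occurred in 59 (0.176%). None of these letters stood in the windows of Abcg5, Abcg8, Nr1h3, Nr1h2 or Lcat, which says nothing of sites elsewhere. In the Rnor_6.0 coordinates of the deposited values, Abcg5 (chromosome 6, 7935770 to 7961207) and Abcg8 (7961412 to 7980708) also stood side by side, 205 bases apart.

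The depth behind each value was read from the FPKM values themselves, which for 8287 of 10602 genes detected in at least 5 libraries (78.2%) were whole numbers of fragments, within a tolerance of 0.01, multiplied by 1 step per gene and 1 factor per library. Summed over these genes, the libraries held 217373 to 326534 fragments, apart from the WD light library with 490751. The WD light library also stood apart in its markers of blood cells (4 of 6 listed found). They summed to 452 FPKM there, against 18.1 to 57.8 FPKM in the other 5. The globin genes Hbb, Hba1 and Hbb-b1 carried this sum, at 242, 163 and 40.1 FPKM. Alas2, the remaining marker, went the other way, at 7.18 FPKM in WD light against 19.7 FPKM in CD light. The part of the WD light library in the results below was not tested. Ribosome density is therefore also given as heavy over total RNA, which leaves both light libraries out. All 7 hepatocyte markers were detected in every library, whereas the markers of cholangiocytes found (3 of 4 listed) summed to at most 4.35 FPKM. Markers of Kupffer cells and macrophages, which also use ABCA1 and ABCG1, summed to 174 FPKM in CD and 229 FPKM in WD total RNA (13 of 13 found, Timd4 at 0 in a library), and their part in the values of these genes was not tested. In such bulk samples, fewer cells of a type and less RNA per cell cannot be told apart.

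The 9 genes spanned a wide range of levels. Lcat (chromosome 19, 37913335 to 37916813) was highest in all 6 libraries, at 198 to 440 FPKM, and its mean of 309 FPKM was above that of 97.6% of the loci compared. Scarb1, Nr1h3, Abca1, Nr1h2 and Soat2 followed, with means of 42.1, 39.1, 24.3, 21.1 and 20.8 FPKM. Abcg5 (4.74 FPKM), Abcg1 (3.60 FPKM) and Abcg8 were the lowest in every library, in that order. The bounds that Cufflinks gives each value overlapped between every gene and the next one down, except between Abcg1 and Abcg8 in the WD heavy fraction.

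**Figure D1:**
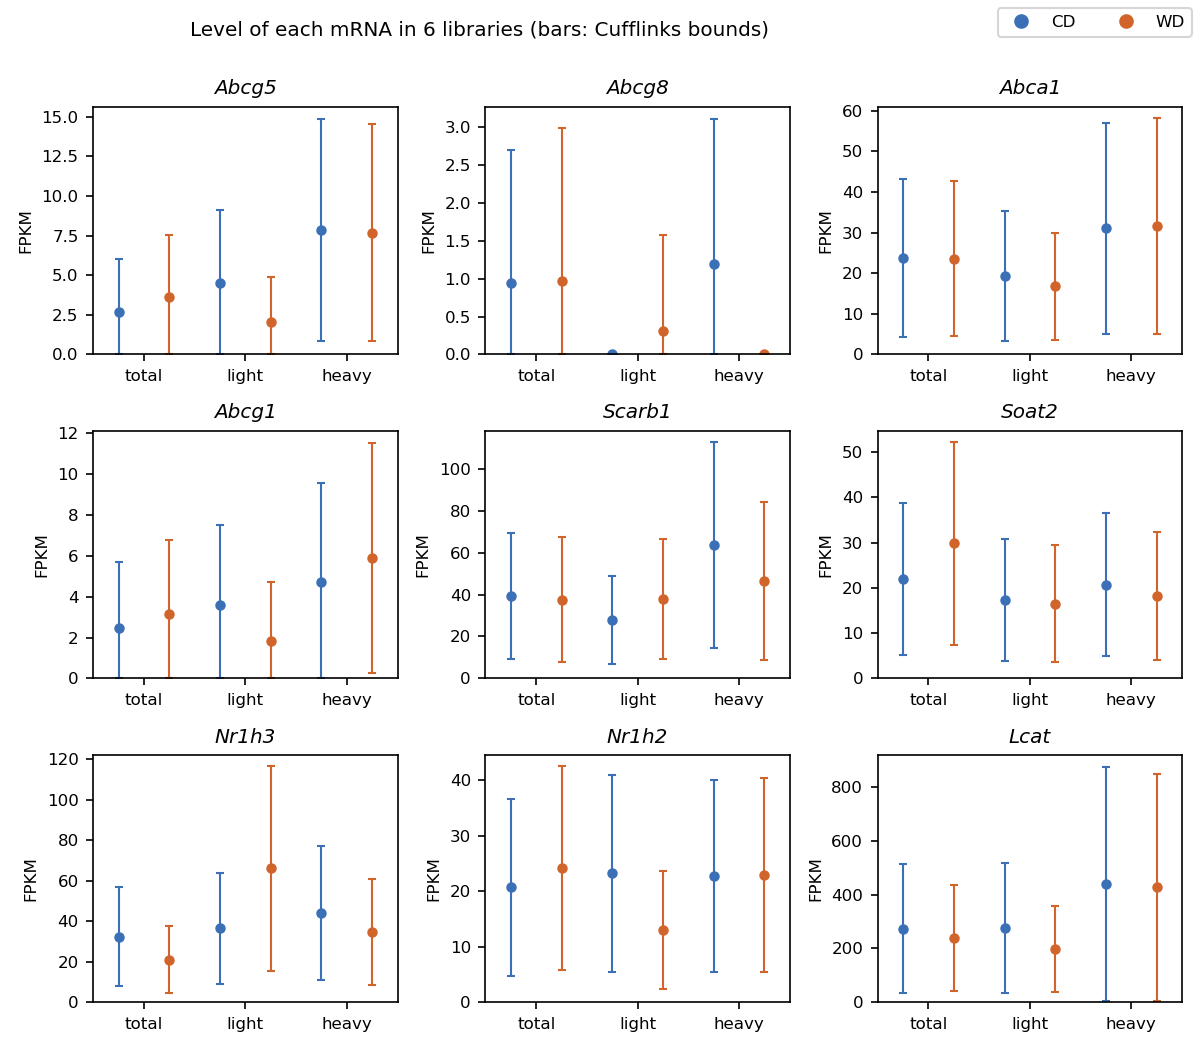
Level of each of the 9 genes (FPKM, vertical axes of their own starting at 0) in total RNA and in the light and heavy fractions. CD stands beside WD, 1 library per point. Bars are the bounds that Cufflinks gives each value, and no error between replicates is shown since no group has a replicate. Lcat spans 198 to 440 FPKM, Nr1h3 is highest in the WD light library (66.1 FPKM), and Abcg8 is listed at 0 in the CD light and WD heavy libraries.

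In total RNA, the ratio of WD to CD lay between 0.651 for Nr1h3 and 1.36 for Soat2. None of the 8 genes compared reached a WD to CD ratio of 1.5 (17.7% of all loci did), and 1, Nr1h3, was at or below 0.75 (22.7% of all loci). Of the 8, 4 were higher (51.1% of all loci) and 4 lower in WD (47%), with a median log2 change of 0.10 against 0.022 over all loci. The 95% interval of the ratio included 1 for all 6 genes with inferred fragments. These intervals, here and below, cover counting error only and compare libraries, not diets.

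The transporters differed widely in the precision of their values. Abca1 (chromosome 5, 69851170 to 69983015) was at 23.8 FPKM in CD and 23.5 FPKM in WD total RNA, from 276 and 261 inferred fragments. Its ratio of 0.989 had an interval from 0.832 to 1.18. In the light and heavy libraries, the bounds of Abca1 were not those shared by genes with the same number of fragments. In CD heavy, its upper bound lay 0.837 times the value above it, against 0.883. The other genes here with fragments matched, so the fragment numbers of Abca1 and its intervals, here and below, are less certain. Abcg5 was at 2.70 and 3.63 FPKM, from 7 and 9 fragments, and its ratio of 1.34 had an interval from 0.445 to 4.25. A difference of Abcg5 near either threshold could not be resolved at this depth.

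For the remaining transporters no fragment numbers could be inferred. Abcg1 (chromosome 20, 9743268 to 9840489) was at 2.45 FPKM in CD and 3.14 FPKM in WD total RNA (log2 change 0.35), with bounds like those of genes with 5 to 8 fragments. Abcg8 was at 0.944 and 0.971 FPKM, with bounds like those of 1 to 3 fragments. Scarb1 (chromosome 12, 36694959 to 36761455) was at 39.2 and 37.6 FPKM, a log2 change of -0.062. That of Abca1 was -0.016, and both turned positive when the libraries were scaled to equal sums.

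The esterifying enzymes lay on either side of no change. Soat2 (chromosome 7, 143754891 to 143767989) was at 21.9 FPKM in CD and 29.8 FPKM in WD total RNA, from 50 and 65 fragments. Its ratio of 1.36 was the highest of the 8 and had an interval from 0.926 to 2.01. Lcat was at 273 and 239 FPKM, and its ratio of 0.876 had an interval from 0.749 to 1.02.

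The receptors pointed in opposite directions. Nr1h3 (chromosome 3, 80004129 to 80012750) was at 32.3 FPKM in CD and 21.0 FPKM in WD total RNA, from 53 and 33 fragments, a ratio of 0.651 (0.408 to 1.02). Nr1h2 (chromosome 1, 100554543 to 100559942) was at 20.7 and 24.2 FPKM, from 43 and 48 fragments, a ratio of 1.17 (0.757 to 1.80).

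**Figure D2:**
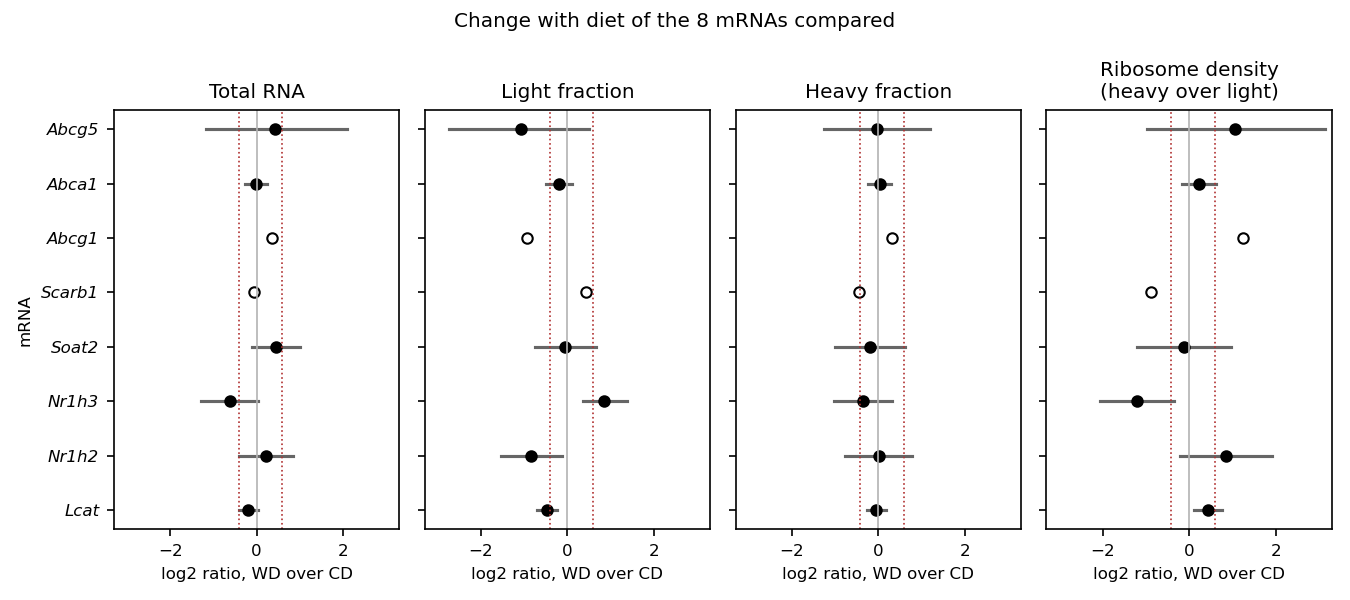
Log2 change, WD over CD, of the 8 genes compared in total RNA (abundance), the light fraction, the heavy fraction and ribosome density. Filled points carry the 95% interval of counting error from inferred fragments, open points (Abcg1, Scarb1) have none, and dotted lines mark ratios of 1.5 and 0.75. Abundance lies between -0.62 and 0.44, whereas density runs from -1.20 for Nr1h3 to 1.25 for Abcg1.

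Within the gradient, most of these mRNAs had a higher FPKM in the heavy than in the light fraction on both diets. FPKM is scaled for library size, so this is relative to the other mRNAs. It does not give how much of an mRNA each fraction held. The heavy to light ratio was over 1 for 7 of 8 genes in CD (50.2% of all loci) and for 7 of 8 in WD (48.5% of all loci). The gene under 1 was Nr1h2 in CD, at 0.976 (0.575 to 1.65), and Nr1h3 in WD, at 0.524 (0.356 to 0.753). For Abca1 the ratio was 1.61 (1.30 to 1.99) in CD and 1.88 (1.58 to 2.24) in WD, and for Lcat it was 1.60 (1.36 to 1.88) and 2.15 (1.86 to 2.49). The median log2 ratio of the 8 genes was 0.53 in CD and 0.86 in WD, against 0.012 and 0 over all loci. This was not particular to the 8 genes. The ratio was over 1 for 8 of 9 genes of HDL and LDL metabolism in CD and 9 of 9 in WD. It was over 1 for 11 and 12 of 13 bile acid genes, and for 6 and 7 of 7 hepatocyte markers. Fewer were over 1 in sterol synthesis (12 and 9 of 22), partners of LXR (3 and 5 of 9) and ester hydrolysis and sterol transport (4 and 4 of 11).

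**Figure D3:**
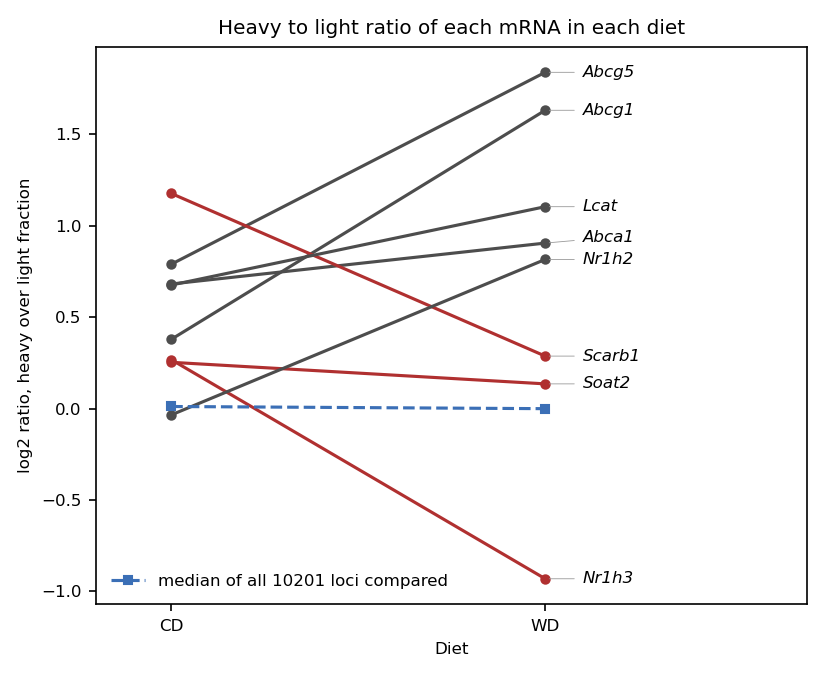
Log2 ratio, heavy over light fraction, for each of the 8 genes compared, CD on the left and WD on the right, 1 library per fraction and diet, lines joining the values of a gene, red where WD is lower, and the blue dashed line joining the medians of all loci compared. The line of Nr1h3 runs from 0.27 down to -0.93 and that of Scarb1 from 1.18 down to 0.29, while those of Abcg5, Abcg1 and Nr1h2 run upwards.

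The diets differed more in the light than in the heavy fraction for 6 of the 8 genes (51.8% of all loci). In the light fraction, 4 genes (Abcg5, Abcg1, Nr1h2 and Lcat) were at or below a WD to CD ratio of 0.75 (26.8% of all loci) and 1, Nr1h3, was at or above 1.5 (25.9%). In the heavy fraction, 1 gene, Scarb1, was at or below 0.75 (25.8% of all loci) and none reached 1.5 (21.7%). For ribosome density, 3 genes were at or above 1.5 (Abcg5, Abcg1 and Nr1h2, against 27.7% of all loci) and 2 at or below 0.75 (Nr1h3 and Scarb1, against 36.1%). With these thresholds set on CD over WD, 4 genes had the higher density in WD (the same 3 and Lcat, against 32.9% of all loci) and 2 the higher density in CD (Nr1h3 and Scarb1, against 30.9%). The change in density was larger than that in abundance for 7 of 8 genes, and for 68.8% of all loci. Bounds given by Cufflinks overlapped between the diets for all 8 genes in each kind of RNA. The share of all loci that overlapped is not given. The bounds were wide, such as 6.28 to 874 FPKM for Lcat in CD heavy, so this overlap says little about these genes.

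The receptors lay on opposite sides in the light fraction and in density. Nr1h3 was at 36.6 FPKM in the CD light and 66.1 FPKM in the WD light fraction, and at 44.1 and 34.6 FPKM in the heavy fractions. The WD light library thus held the highest of its 6 values, with 161 inferred fragments against 33 to 53 in the others. Its light ratio was 1.81 (1.27 to 2.61) and its density ratio 0.435 (0.241 to 0.784). Scaling the libraries to equal sums left the light fraction of Nr1h3 higher in WD but under the threshold, at a log2 change of 0.50.

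Nr1h2 showed the reverse arrangement. It was at 23.3 FPKM in the CD light and 13.0 FPKM in the WD light fraction, a ratio of 0.557 (0.343 to 0.912), and at 22.7 and 22.9 FPKM in the heavy fractions. The WD light value was the lowest of its 6, and the other 5 lay between 20.7 and 24.2 FPKM. Its density ratio was 1.81, with an interval from 0.866 to 3.78 that included 1.

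A ratio of both receptors within a library does not depend on how that library was scaled, and this ratio was added after their values were seen. Nr1h3 stood at 1.56 times the FPKM of Nr1h2 in CD total RNA and at 0.870 times in WD total RNA. It stood at 1.57 times in the CD light and 5.09 times in the WD light fraction, and at 1.94 and 1.51 times in the heavy fractions. The balance of the receptors thus lay furthest towards Nr1h3 in the WD light library and furthest towards Nr1h2 in WD total RNA. Between diets this balance differed by a factor of 3.24 (1.75 to 5.97) in the light fraction, while the factors of 0.558 (0.293 to 1.06) in total RNA and 0.778 (0.380 to 1.59) in the heavy fraction had intervals that included 1.

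Abcg5 and Abcg1 had the highest density ratios together with the fewest fragments. Abcg5 was at 4.51 FPKM in the CD light and 2.07 FPKM in the WD light fraction, and at 7.87 and 7.68 FPKM in the heavy fractions. These values rest on 8 and 8 light and on 13 and 13 heavy fragments. With equal fragments on both diets, any gene has a density ratio of 2.12 from the library factors alone, which is the value of Abcg5, and its interval reached from 0.512 to 8.80. Abcg1 was at 3.59 and 1.83 FPKM in the light and at 4.70 and 5.89 FPKM in the heavy fractions, a density ratio of 2.46. Its bounds were like those of 4 to 7 fragments in the light and 6 to 10 in the heavy fractions. Abcg1 is on the study's list of steatosis genes, which was drawn up by ribosome density in these same libraries, so that list is not independent evidence of its direction.

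Abcg8, the partner of Abcg5 in the biliary pump, could not be followed in the gradient. It was listed at 0 in the CD light and WD heavy fractions and at 0.312 FPKM in the WD light and 1.19 FPKM in the CD heavy fraction. The value in the CD heavy fraction had a bound like that of genes with 2 to 3 fragments.

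Abca1 was the steadiest of the efflux genes. It was at 19.3 FPKM in the CD light and 16.8 FPKM in the WD light fraction, and at 31.0 and 31.6 FPKM in the heavy fractions, from 153 to 290 fragments. Its heavy ratio was 1.02 (0.846 to 1.23) and its density ratio 1.17 (0.887 to 1.54).

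Scarb1, the uptake receptor, was the only gene of the 8 at or below 0.75 in the heavy fraction. There, 5 of the 8 were lower in WD (50.4% of all loci). It was at 63.5 FPKM in the CD heavy and 46.3 FPKM in the WD heavy fraction, a ratio of 0.729, and at 28.0 and 37.9 FPKM in the light fractions. The CD heavy library held its highest value and the CD light library its lowest. Its density ratio was 0.539, but the bounds of the heavy values were wide, at 14.3 to 113 FPKM in CD and 8.56 to 84.0 FPKM in WD.

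The esterifying enzymes again parted. Soat2 was at 17.3 FPKM in the CD light and 16.5 FPKM in the WD light fraction, and at 20.7 and 18.2 FPKM in the heavy fractions, all of them below its 29.8 FPKM in WD total RNA. Its density ratio was 0.921 (0.434 to 1.95), and its log2 density change of -0.12 turned to 0.21 when the libraries were scaled to equal sums. Lcat was at 275 FPKM in the CD light and 198 FPKM in the WD light fraction, a ratio of 0.719 (0.612 to 0.846), and at 440 and 426 FPKM in the heavy fractions, a ratio of 0.968 (0.836 to 1.12). Its density ratio was 1.35 (1.08 to 1.68), below the threshold of 1.5, and no other of the 6 genes with fragments had an interval above 1. Lcat passed the threshold when it was set on CD over WD (0.743) and when the libraries were scaled to equal sums (1.69, WD over CD).

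Without the light libraries the picture of density was different. As heavy over total RNA, no gene reached 1.5 (26.7% of all loci), and 2, Abcg5 and Soat2, were at or below 0.75 (31.0%). Of the genes past a threshold by heavy over light, Abcg5, Abcg1, Nr1h3 and Nr1h2 turned direction. The share of all loci that turned in this way is not given, so the turn cannot be called particular to these genes. The log2 density change became -0.45 for Abcg5, -0.024 for Abcg1, 0.27 for Nr1h3 and -0.21 for Nr1h2, and that of Scarb1 remained below 0 at -0.39. The ratio for Nr1h3 was then 1.21 (0.624 to 2.33), for Abcg5 0.726 (0.172 to 3.01), for Nr1h2 0.864 (0.429 to 1.74) and for Soat2 0.646 (0.325 to 1.28). For Lcat it was 1.11 (0.892 to 1.37), and for Abca1 it was 1.03 (0.798 to 1.33). Intervals of all 6 genes included 1 by this measure.

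**Figure D4:**
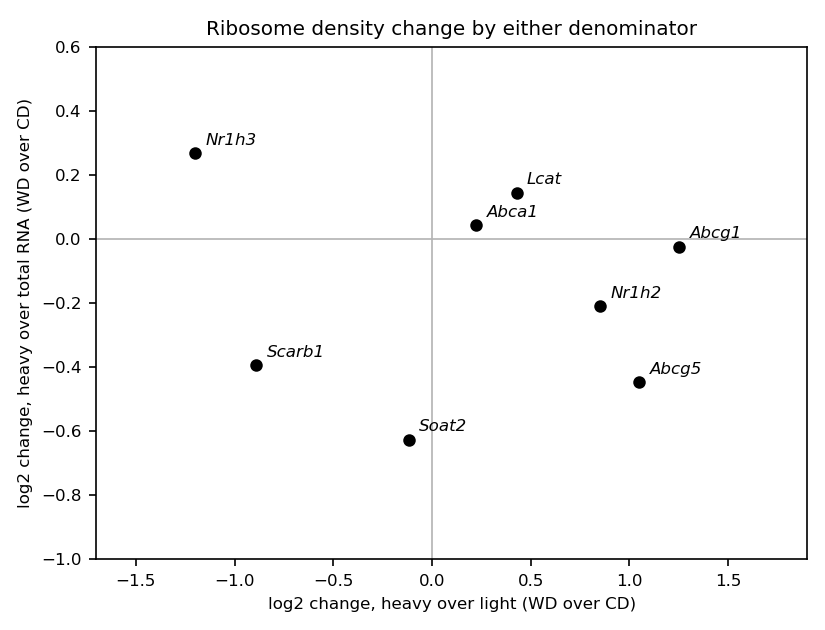
Log2 change in ribosome density, WD over CD, of the 8 genes compared, as heavy over light (horizontal) and as heavy over total RNA (vertical), 1 library per group and no error shown. Abcg5, Abcg1 and Nr1h2 lie right of 0 and below 0, Nr1h3 lies left of 0 and above 0, and Scarb1 is below 0 on both axes.

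Over the 6 libraries, which share pools of rats and are therefore no independent points, some of the genes had similar profiles. Pearson's r of log2 levels was 0.978 between Abcg5 and Abcg1, 0.939 between Abcg5 and Lcat, 0.913 between Abca1 and Lcat and 0.909 between Abcg1 and Lcat. The lowest were -0.821 between Nr1h3 and Soat2 and -0.795 between Nr1h3 and Nr1h2. Abcg5 and Abcg8, which share a promoter stretch, had an r of -0.245, where the values of Abcg8 include a pair of zeros. The profile most like that of each gene was the highest of 3907 or 3908 loci with a mean of 10 FPKM or more. For Abcg5 it was Timd2 (r = 0.997), with 63 loci at 0.95 or more. For Abca1 it was Hadh (0.999), with 248 such loci. For Lcat it was Gjb1 (0.997, 150 such loci), for Scarb1 Cyp2j4 (0.992, 16) and for Abcg1 Mto1 (0.986, 33). For Nr1h3 it was the ribosomal protein gene Rpl11 (0.978, 5). For Nr1h2, Soat2 and Abcg8 they were AABR07058884.2 (0.981, 18), AABR07035818.1 (0.975, 1) and Ywhah (0.968, 3).

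The other genes of LXR signalling were described in the same way, by counts and medians beside those of all loci, with no test. Of 9 partners and cofactors of LXR, 2 had an abundance ratio of at least 1.5 (17.7% of all loci). None had a ratio of at most 0.75 (22.7%), and the median log2 change was 0.064. Ncoa3, a coactivator, was the highest at 1.58 (7 and 21 fragments). For density, Rxrb, a retinoid X receptor, was highest at 2.07 and the corepressor Ncor1 lowest at -0.41. As heavy over total RNA both turned, to -0.13 for Rxrb and 0.082 for Ncor1.

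Of 12 other known targets of LXR compared, 9 were higher in WD in abundance (51.1% of all loci) and 4 reached 1.5 (17.7%). The median log2 change of the 12 was 0.30. The 4 were Cyp7a1, Mylip, Lpl and Mlxipl, and only Cyp7a1 had an interval above 1. In CD and WD total RNA, Mylip rests on 1 and 2 fragments and Lpl on 8 and 13. Their intervals, 0.109 to 123 and 0.653 to 4.73, included 1, and Mlxipl had no inferred fragments. Cyp7a1, the rate-limiting enzyme of bile acid synthesis and an LXR target in rodents, was the highest, at 22.2 FPKM in CD and 50.6 FPKM in WD total RNA, from 85 and 185 fragments. Its abundance ratio was 2.28 (1.75 to 2.98), its light and heavy ratios were 1.92 and 1.99, and its density ratio was 1.04 (0.701 to 1.55). Scd1, a fatty acid desaturase that LXR also controls through SREBP-1c, was the lowest at a log2 change of -0.66. In density, Lpl (lipoprotein lipase) was highest at 0.85, and at 0.70 as heavy over total RNA. Its heavy values rest on 2 fragments in CD and 6 in WD. The ratios were 1.93 (0.282 to 22.5) and 1.72 (0.223 to 21.1), so both intervals included 1.

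Genes that make oxysterols or handle cholesteryl esters within the cell had no common direction. Of 4 oxysterol enzymes compared, Cyp7b1 had the highest abundance change (1.31) and Sult2b1 the lowest (-0.87). Sult2b1 also had the highest density change (2.00), from a CD heavy value listed at 0. Cyp7b1 was low, at 1.08 FPKM in CD and 2.84 FPKM in WD total RNA, with lower bounds of 0 and no inferred fragments. Cyp27a1, a sterol hydroxylase of mitochondria, had the lowest density change of these (-0.029), and 0.57 as heavy over total RNA. Of 11 genes of ester hydrolysis and sterol transport, 6 were higher in abundance (51.1% of all loci) and 3 reached 1.5 (17.7%). The sterol carrier Stard5 was highest at 2.99, from 2 and 16 fragments, and its relative Stard4 lowest at -0.85. Scp2, another sterol carrier, had the lowest density change (-2.62), with 32.5 FPKM in the CD light and 183 FPKM in the WD light fraction, and a change of -0.034 as heavy over total RNA. Soat1, the paralog of Soat2 that is typical of macrophages, had the highest (1.92), and was listed at 0 in both CD fractions. In total RNA, Soat1 was at 0.999 FPKM in CD and 3.13 FPKM in WD.

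Partners in lipoproteins were mostly lower. Of 9 genes of HDL and LDL metabolism, 8 were lower in abundance (47% of all loci) and 2 were at or below 0.75 (22.7%). Their median log2 change was -0.22. Apoa1, the main protein of HDL and the acceptor for ABCA1, had the lowest density ratio, 0.349 (0.273 to 0.446), and was at 246 FPKM in the CD light and 626 FPKM in the WD light fraction. As heavy over total RNA, the direction of Apoa1 turned, to a ratio of 1.23 (0.963 to 1.56). Apoa4 had the highest abundance change (0.16) and Apoa2 the highest density change (0.57), which was -0.13 as heavy over total RNA.

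Sterol synthesis and bile acid genes are given for comparison. Of 22 genes of sterol synthesis, 20 were lower in WD in abundance (47% of all loci) and 12 were at or below 0.75 (22.7%). Their median log2 change was -0.49. Of the 8 efflux, esterification and LXR genes, 4 were lower and 1 was at or below 0.75. The 13 genes of bile acid synthesis and export, which include Cyp7a1 and Cyp7b1, had 7 higher (51.1% of all loci) and 6 lower (47%). Their median log2 change was 0.012. The extremes of sterol synthesis were Pmvk (0.064) and Sqle (-2.24, from 6 and 1 fragments) in abundance. In density they were Idi1 (3.90, from a CD heavy value listed at 0 and 1 WD heavy fragment) and Sqle (-4.42). For bile acids they were Cyp7b1, at the low values given above, and Cyp8b1 (-0.41) in abundance. In density they were Nr0b2 (5.61, from a CD heavy value listed at 0) and Baat (-1.06). As heavy over total RNA, these density changes were 3.11 for Idi1, -0.18 for Sqle, 5.06 for Nr0b2 and 0.016 for Baat. Those of Idi1 and Nr0b2 rest again on the CD heavy values listed at 0. The difference between these groups was not tested, since the genes of a list share each library.

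**Figure D5:**
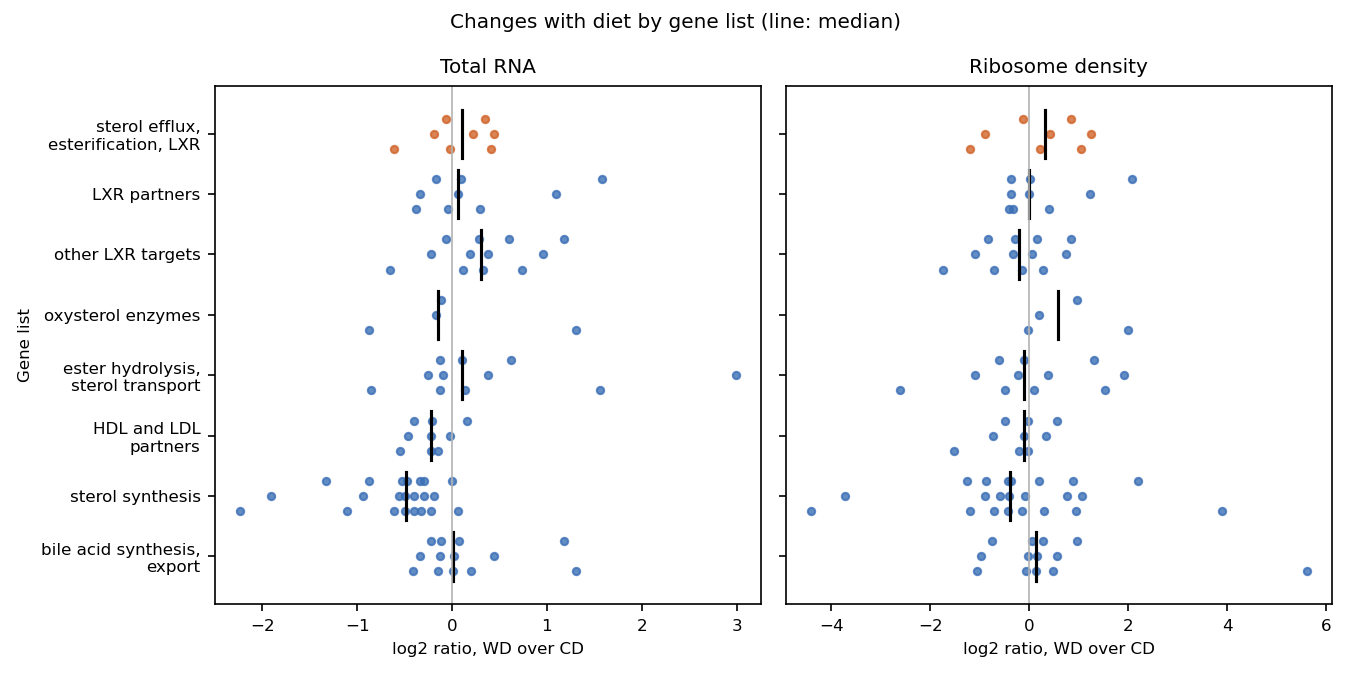
Log2 change, WD over CD, in abundance (left) and ribosome density (right) for each gene compared in 8 lists, 1 point per gene, with the list's median as a black bar and a grey line at 0. The 8 efflux, esterification and LXR genes (orange) lie between -0.62 and 0.44 in abundance, on both sides of 0. There, 20 of 22 sterol synthesis genes lie below 0 (47% of all loci).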

How the data were processed

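RNA of 3 rats was pooled for each of 6 libraries. According to the submitters' notes and the methods, reads were aligned to Rnor_6.0 with TopHat and quantified with Cufflinks and Cuffnorm. The authors deposited FPKM values for 33022 loci with a lower and an upper bound for each, normalized between libraries. Which alignment the gradient fractions had is not certain from the methods.

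The deposited FPKM values were compared as log2(FPKM + 0.1), which understates changes of low genes, in Python 3.11.15 with scipy 1.17.1, numpy 2.4.6 and pandas 2.3.3, and drawn with matplotlib 3.10.9. Ratios are of FPKM values as deposited. Loci compared carried a symbol, had no failed estimate and averaged 1 FPKM or more. Thresholds of 1.5 and 0.75 were set on WD over CD for every ratio. The study set these values on CD over WD, for ribosome density, which is given as an alternative chosen after seeing the data.

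Fragment numbers were inferred for genes above 0 in at least 5 libraries and at 0.05 FPKM or more per fragment, and were tested on simulated data. They are estimates. Of the 9 genes, 6 had them. Intervals (95%) are Clopper-Pearson for a ratio of 2 libraries and exact conditional odds ratios for 4. PCR copies without molecular identifiers are not independent molecules, so they cover counting error only.

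The genes, lists and tests were chosen with earlier results of these data known. All 9 genes are named, as are the highest and lowest of each list in abundance and density and the locus most like each gene. Of these extremes, 3 are not reported here. Promoters came from RefSeq (GRCr8), with coordinates of that assembly, and were searched on both strands for 4 DR4 spellings, the GATA box (GATAA), the CCAAT box, the E-box (CACGTG) and the TATA box (TATAAA). Alternatives were other filters on low values, other pseudocounts, rescaled and centred libraries, values summed over the loci of a symbol, and heavy over total RNA.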

Additional observations from a re-analysis of the deposited data

How the results depend on the processing

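No paired analysis was possible because each group is 1 library, and no replicate could be left out. With Abcg8 let in by a mean of at least 0.1 FPKM or by no filter, the median log2 change was -0.20 in the light fraction. It was 0.22 in density, and the median log2 heavy to light ratio in CD was 0.68. In the light fraction 2 genes reached 1.5 (29.6% of all loci at 0.1 FPKM, 30.5% with no filter). In the heavy fraction 2 were at or below 0.75 (24.9% and 23.8%). With a mean of at least 10 FPKM, 6 genes were left, with medians of -0.039 in abundance, -0.13 in the light fraction, 0.053 in density and 0.55 in the WD heavy to light ratio. Of these 6, 2 were at or below 0.75 in the light fraction (27.2% of all loci at this filter) and 1 reached 1.5 in density (23.3%). With libraries scaled to equal sums, the medians were -0.69 in the light fraction, 0.65 in density and 1.17 in the WD heavy to light ratio, and 0 genes reached 1.5 in the light fraction (17.3% of all loci), 6 were at or below 0.75 there (44.2%) and 4 reached 1.5 in density (38.0%). This scaling moved the median of all loci to -0.29 in the light fraction, 0.28 in density and 0.12 in abundance. As heavy over total RNA, the median density change was -0.12, 0 genes reached 1.5 (26.7% of all loci), and Abcg5 (-0.45), Abcg1 (-0.024), Nr1h3 (0.27) and Nr1h2 (-0.21) turned direction, the cause of which was not tested beyond the absence of the light libraries. Other pseudocounts, centring and summing loci left every count within 1.5 times and no threshold gene turned. Depth limits Abcg5, Abcg8 and Abcg1 most, at 13 or fewer inferred fragments for Abcg5.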
